A study of Homo sapiens with 5 samples.

Results

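The 33 genes of Mediator and its kinase module were examined for MYC and HSF1 peaks in OVCAR8 cells. They were taken by name: the MED genes MED1 to MED31 that are in use, the paralogs MED12L and MED13L, and the kinase genes CDK8, CDK19 and CCNC. All 33 were found among 20033 protein-coding genes of the annotation. For each of them every called peak was collected from 5 kb upstream of the gene to its end.

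OVCAR8 is a human high-grade serous ovarian carcinoma line in which, according to the study, MYC and HSF1 are both amplified. Proliferating, untreated cells were fixed with 1% formaldehyde for 1 minute, and 500000 cells went into each CUT&RUN reaction, in which an antibody directs a nuclease to cut out the DNA beneath its target. There were 2 MYC libraries, 2 HSF1 libraries and 1 IgG library, and the question was where the pair of transcription factors bind and where they bind together. All libraries are of 1 cell line without depletion of either factor, and all 4 peak lists share 1 IgG background. The file headers call that control IgG replicate 2, whereas the labels give a single IgG sample without a number, and they are taken here to be the same.

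Mediator is a large coactivator that links DNA-bound transcription factors to RNA polymerase II at promoters. Its head and middle touch the polymerase, MED14 forms the backbone, the tail receives many activators, and a separable kinase module of CDK8 or CDK19, cyclin C, MED12 and MED13 docks onto the core and regulates its contact with the polymerase. MYC, bound with MAX, recognises the E-box CACGTG, and HSF1, the main factor of the heat shock response, binds as a trimer to repeats of GAA in alternating orientation.

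The strongest MYC peak of the whole gene set lay in intron 8 of MED15, a tail subunit contacted by several activators, and was the only place where a peak of every one of the 4 lists overlapped all the others. The promoter peaks that held an E-box close to a summit were those of the kinase module genes MED13, MED13L and CDK8 and of MED28. In replicate 1 the MYC peak of MED19 held a heat shock element without an HSF1 peak. The reference sequences at these places (GRCh38, plus strand, none in a UTR) are shown because the results below return to them. In the MED15 intron 8 sequence the capitals run from the outermost HSF1 summit to the outermost MYC summit, in the MED19 sequence they mark the heat shock element, and in the others they mark the E-box.
MED15 intron 8, chr22:20569252-20569402: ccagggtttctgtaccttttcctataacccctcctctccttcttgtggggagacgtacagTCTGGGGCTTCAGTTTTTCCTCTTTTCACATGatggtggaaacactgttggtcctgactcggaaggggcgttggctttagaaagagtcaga
MED15 outermost start, chr22:20495859-20495904: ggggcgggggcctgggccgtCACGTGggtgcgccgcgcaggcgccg
MED13, chr17:62065975-62066020: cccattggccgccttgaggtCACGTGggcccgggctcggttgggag
MED13L, chr12:116277720-116277765: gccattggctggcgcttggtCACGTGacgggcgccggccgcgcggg
CDK8, chr13:26253909-26253954: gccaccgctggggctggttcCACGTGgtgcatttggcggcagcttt
MED28, chr4:17614546-17614591: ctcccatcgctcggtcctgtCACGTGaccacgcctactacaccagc
MED19, chr11:57712327-57712371: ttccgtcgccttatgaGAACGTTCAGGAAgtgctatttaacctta

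The lists held 25623 MYC peaks in replicate 1, 13278 in replicate 2, and 6421 and 4459 HSF1 peaks in replicates 1 and 2 on chromosomes 1 to 22, X and Y. Libraries were of similar depth, 8265647 to 10084407 fragments after filtering against 9306942 in the IgG library, and the smaller MYC library gave the longer list. Peaks that overlapped by at least 1 bp in both lists of a factor were called reproducible, which left 11756 MYC and 2141 HSF1 peaks. A peak was placed at a promoter when it reached the stretch from 1000 bp upstream to 100 bp downstream of the start of the gene's canonical transcript, and in the gene body when it lay elsewhere in the gene. MYC peaks had been called at p 1e-10 and HSF1 peaks at 1e-04, so the heights of the factors are not set against each other.

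MYC was called at the promoters of many Mediator genes, with a large difference between the replicates. In replicate 1, 25 of 33 promoters (75.8%) had a MYC peak, against 49.1% of all coding genes. In replicate 2 there were 14 of 33 (42.4%), against 35.7%. Both lists together gave 13 genes with a reproducible promoter peak (39.4%), against 35.1%. The members stood above the background in the longer list and close to it in the shorter list and in the reproducible peaks. Of the 25 promoters of replicate 1, 13 (52.0%) also had a peak in replicate 2, whereas 70.2% of all coding genes with a replicate 1 promoter peak did. Genes of 1 set are not replicates, so these shares describe the lists and carry no test.

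**Figure D1:**
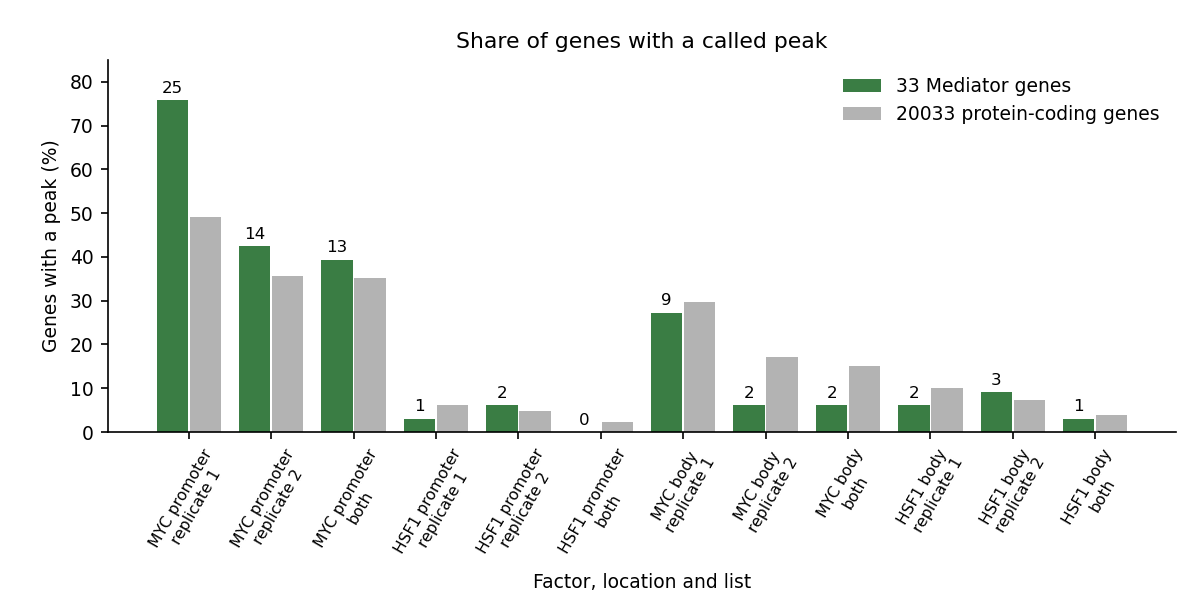
Percentage of genes with a called peak (vertical axis) for each factor, location and list (horizontal axis). Green bars are the 33 Mediator genes, with the number of genes above each bar, and grey bars are all 20033 protein-coding genes; the green bar stands well above the grey one at MYC promoters in replicate 1 (75.8% against 49.1%).

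The height of a promoter peak was read as its fold enrichment over the local IgG background at the summit. Over the members with a peak its median was 14.0 in replicate 1 and 9.56 in replicate 2, against 14.4 and 11.7 over all coding genes with a promoter peak. Among the 13 reproducible promoters, replicate 1 gave the higher value in 12, with a median ratio of 1.37 (0.990 to 2.77), close to the median ratio of 1.35 over 6905 coding genes. The 12 promoters seen in replicate 1 alone were lower in that list, with a median fold enrichment of 11.6 and a median pileup of 21.5 fragments, than the 13 reproducible ones, with 15.4 and 34.0. The peaks sat near the starts: 37 of 39 promoter summits lay within 500 bp of the canonical start and 29 were upstream of it. Summits of the same gene in both lists were 6 to 386 bp apart (median 110.0).

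**Figure D2:**
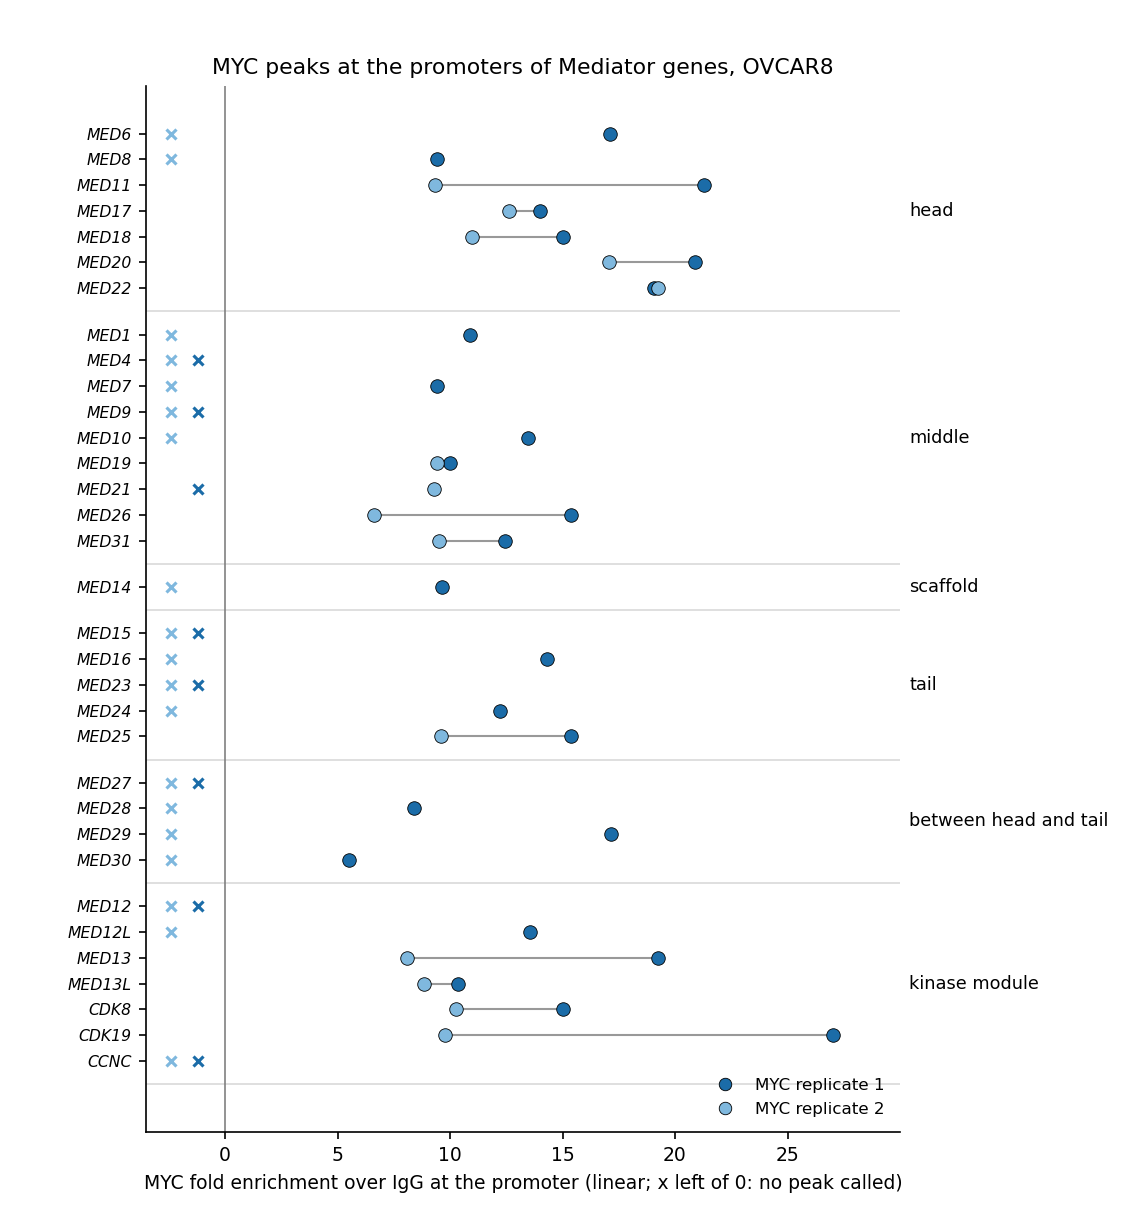
MYC fold enrichment over IgG at the promoter (horizontal axis, linear) of each Mediator gene (rows, grouped by module). Dark points are replicate 1, light points replicate 2, grey lines join the same gene, and crosses left of 0 mark a list without a promoter peak; every head gene has a replicate 1 point, and CDK19 has the widest gap (27.0 and 9.76).

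The head module contacts the polymerase and the general factors. All 7 head genes had a MYC promoter peak in replicate 1 (fold enrichment 9.43 to 21.3), against the 49.1% of coding genes given above, and 5 of 7 in replicate 2 (9.34 to 19.3), against 35.7%. MED11 and MED22 encode partners of a small heterodimer. MED11 had 21.3 in replicate 1 and 9.34 in replicate 2 (mean 15.3 ± 8.46 SD, n = 2). MED22 had 19.1 and 19.3, the highest mean among peaks at canonical promoters of the members (19.2 ± 0.134 SD, n = 2). MED18 and MED20 encode another pair, the movable jaw of the head. MED20 had 20.9 and 17.1 (19.0 ± 2.72 SD, n = 2) and MED18 had 15.0 and 11.0. MED17, the central head subunit, had 14.0 and 12.6. The remaining head genes were called in replicate 1 alone, MED6 at 17.1 and MED8 at 9.43.

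Several of these promoters are shared with a neighbour on the other strand, and their peaks cannot be assigned to either gene. Counting canonical starts alone, a coding gene starts within 1 kb on the opposite strand at 6 of 33 members, against 10.0% of all coding genes. Other annotated starts add cases that are not in this count, such as starts of TAF1D near MED17 and of FUZ near MED25. The MED22 start lies 87 bp from that of RPL7A, a gene of the large ribosomal subunit. The MED22 summits of replicates 1 and 2 were 139 and 502 bp from an annotated RPL7A start. They were 4 and 13 bp from annotated starts of MED22 itself. MED20 lies 360 bp from BYSL, which acts in ribosome assembly, and its replicate 1 summit was 176 bp from the BYSL start. Neighbours of other members were TMX2 for MED19 (378 bp), PAF1 for MED29 (272 bp) and C17orf100 for MED31 (157 bp). Of the 6 genes, MED19, MED20, MED22 and MED31 had reproducible MYC promoter peaks.

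The middle module, like the head, touches the polymerase. MYC promoter peaks were called at 6 of its 9 genes in replicate 1 and 4 in replicate 2, and 3 were reproducible. MED26, the subunit that brings elongation factors to the polymerase, had 15.4 in replicate 1 and 6.63 in replicate 2. MED31 had 12.4 and 9.52, and MED19 had 10.0 and 9.44. MED7 and MED21 encode the hinge of the middle module, and each was called in 1 list, but in different ones. MED7 had 9.44 in replicate 1 with no call in replicate 2, and MED21 had 9.30 in replicate 2 with no call in replicate 1, the only member called in replicate 2 alone. MED1, the subunit that binds nuclear receptors, had 10.9 and MED10 had 13.5, both in replicate 1 alone. No MYC promoter peak was called at MED4 or MED9 in either list.

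MED14, the backbone that joins head, middle and tail, had a MYC promoter peak of 9.62 in replicate 1, with its summit 470 bp upstream of the start, and none in replicate 2. It was 1 of the 2 members with any HSF1 promoter peak: replicate 2 had one of fold enrichment 3.91 and pileup 5, 123 bp upstream of the start, and replicate 1 had none. The MYC and HSF1 peaks of MED14 did not overlap.

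Tail genes and the genes placed between head and tail had few reproducible MYC promoter peaks, 1 of 5 and 0 of 4, against 35.1% of all coding genes. Other reproducible peaks of tail genes, in MED15 and upstream of MED24, lay outside the canonical promoters. In the tail, 3 of 5 genes were called in replicate 1 and MED25 was the gene also called in replicate 2. MED16 had 14.3 and MED24 had 12.2 in replicate 1 alone, while MED23 had no promoter peak in either list. Upstream of MED24 a reproducible MYC peak (8.47 and 7.68) lay 250 and 354 bp from the start of THRA, the neighbouring thyroid hormone receptor gene. Among MED27 to MED30, none had a reproducible peak: MED29 had 17.2, MED28 had 8.38 and MED30 had 5.49 in replicate 1 alone, and MED27 had no promoter peak. MED30 had the lowest fold enrichment of the 25 promoters of replicate 1 with a pileup of 24, while MED10 reached 13.5 with a pileup of 21.

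The kinase module phosphorylates transcription factors and the polymerase and keeps Mediator from the polymerase while it is docked. CDK8 had 15.0 in replicate 1 and 10.3 in replicate 2. CDK19, which can take the place of CDK8, had 27.0 and 9.76 (18.4 ± 12.2 SD, n = 2), the highest replicate 1 promoter value among the members. CCNC, the cyclin that both kinases need, had no promoter peak in any of the 4 lists. Thus both kinase genes were called in both MYC lists and their cyclin in none. CCNC was also among the 5 members (with MED4, MED9, MED12 and MED23) that had no peak anywhere from 5 kb upstream to the gene end in any list.

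MED13 and MED13L, which tether the module to the core, were both reproducible. MED13 had 19.2 and 8.09 (13.7 ± 7.88 SD, n = 2), with summits 754 and 588 bp upstream of its canonical start and 77 and 89 bp from the start of an unnamed noncoding gene. MED13L had 10.4 and 8.85, with summits 85 bp upstream and 204 bp downstream of the start. Its peaks overlapped each other by less than 100 bp, and the call was lost when an overlap of 100 bp was required. MED12, which activates the kinase through cyclin C, had no MYC promoter peak in either list. Its paralog MED12L had 13.6 in replicate 1 and none in replicate 2.

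**Figure D3:**
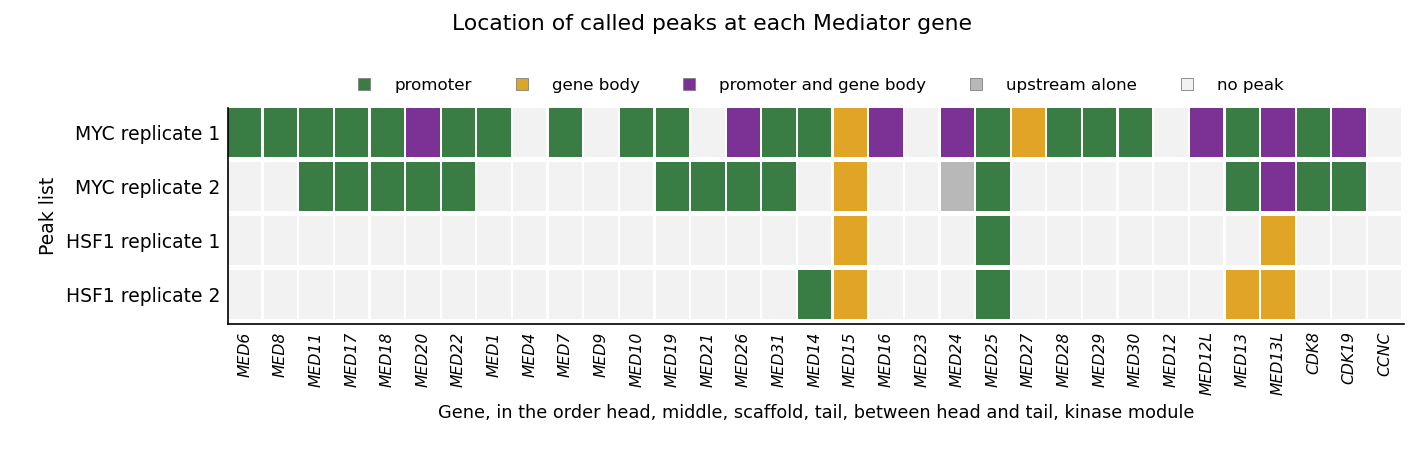
Location of called peaks for each of the 33 genes (horizontal axis, by module) in each of the 4 peak lists (vertical axis). Green marks a promoter peak, yellow a gene body peak, purple both, grey an upstream peak alone and near white no peak; HSF1 squares are filled at MED13, MED13L, MED14, MED15 and MED25.

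E-boxes were present at a minority of these promoters. In the window from 1000 bp upstream to 100 bp downstream, 7 of 33 members held CACGTG, which reads the same on both strands, against 19.6% of all coding genes. Of these 7, 6 were among the 13 genes with a reproducible MYC promoter peak (MED13, MED13L, MED19, MED20, MED31 and CDK8), and the remaining one was MED28. The same split was not made over all coding genes, so this count has no background and describes the members alone. Within 100 bp of the strongest summit, 2 of the 13 (MED13 and MED13L) held it, against 7.81% of all coding genes with a reproducible MYC promoter peak. At both genes this E-box lay inside the replicate 1 peak and outside the replicate 2 peak. At CDK8 the E-box lay 94 bp from the replicate 2 summit, which was the weaker one, and at MED28 the peak of replicate 1 had 2 E-boxes within 100 bp of its summit.

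The paralogs MED13 and MED13L shared more than the E-box. In both sequences printed above, ATTGG stands 12 bases before CACGTG, and 24 of the 46 bases were identical. With both strands searched, this arrangement was found in the promoter window of 2 of 33 members, against 0.120% (24) of all coding genes. It was searched after the sequences had been seen, so it describes the pair and is no independent result. The 24 identical bases include ATTGG and the E-box, on which the printed sequences were centred. How many bases unrelated sequences would share was not computed. At MED13 the E-box lay 717 bp upstream of the canonical start, and at MED13L 47 bp upstream.

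The heat shock element was searched as GAANNTTCNNGAA on both strands. Within 100 bp of the strongest MYC summit it was found at 1 of the 13 genes, MED19, against 0.341% of coding genes with a reproducible MYC promoter peak. The element lay 77 bp from the replicate 1 summit, inside the replicate 1 peak and outside the replicate 2 peak. No HSF1 peak was called in either list at MED19.

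HSF1 was rarely called at Mediator promoters, as it was at those of all coding genes. Replicate 1 had an HSF1 promoter peak at 1 of 33 genes, against 6.06% of all coding genes, and replicate 2 at 2 of 33, against 4.88%. None of the 33 had a reproducible one, against 2.30%. The member called in both lists was MED25, a tail subunit that receives activators, but its HSF1 peaks did not overlap. In replicate 1 the peak had a fold enrichment of 5.51 (chr19:49817395-49817672), with its summit 850 bp upstream of MED25 and 63 bp from an annotated start of FUZ. In replicate 2 it had 5.09 (chr19:49818025-49818241), with its summit 100 bp upstream. The HSF1 pileups were low, 8 in replicate 1 and 7 in replicate 2. Each HSF1 peak overlapped the reproducible MYC promoter peak of MED25, whose fold enrichments were 15.4 and 9.60 with summits 104 and 110 bp upstream. In replicate 2 the MYC and HSF1 peaks had the same start and the same end. The HSF1 replicate 2 summit thus lay beside the MYC summits, and the HSF1 replicate 1 summit did not. Because no HSF1 promoter peak was reproducible, overlapping reproducible MYC and HSF1 promoter peaks were found at 0 of 33 members, against 1.98% of all coding genes.

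MYC had fewer Mediator genes called in the gene body than at the promoter, and HSF1 had slightly more. MYC replicate 1 had body peaks in 9 of 33 genes, against 29.8% of all coding genes, replicate 2 in 2, against 17.2%, and 2 genes, MED13L and MED15, had reproducible ones, against 15.0%. HSF1 replicate 1 had body peaks in 2 genes, against 10.0%, replicate 2 in 3, against 7.36%, and MED15 alone had a reproducible one, against 3.86%. Outside MED13L and MED15, the MYC body peaks were 8 peaks of replicate 1 alone in 7 genes (MED12L, MED16, MED20, MED24, MED26, MED27 and CDK19). Their fold enrichments were 7.20 to 14.8. The body summits in MED20 and MED24 lay 107 and 186 bp from other annotated starts of the same genes. The members were about as long as other coding genes (median 25.6 and 27.5 kb). The single HSF1 body peaks were in the paralogs MED13, at 5.15 in intron 8 (replicate 2), and MED13L, at 5.35 in intron 4 (replicate 1) and 4.39 in intron 2 (replicate 2), and in intron 1 of MED15, at 5.77 (replicate 1). The MED13L intron 4 peak overlapped a MYC peak of 11.1 that was called in replicate 1 alone. Near its far end, in intron 30, MED13L also had a reproducible MYC peak, of 7.56 and 7.90, with summits 767 and 508 bp from an annotated MED13L start.

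MED15 (chr22:20495913-20587632) held 8 of the 18 body peaks of the set in MYC replicate 1, 3 of 4 in MYC replicate 2, 2 of 3 in HSF1 replicate 1 and 1 of 3 in HSF1 replicate 2. In MYC replicate 1 it had 8.72 body peaks per 100 kb, and the members as a whole had 0.835, against 0.835 for all coding genes. In MYC replicate 2 the members had 0.186 against 0.377, and in HSF1 they had 0.139 in each list against 0.215 and 0.150. Without MED15 the members had 0.484 in MYC replicate 1. At least as many replicate 1 body peaks as in MED15 were found in 0.714% of all coding genes.

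**Figure D4:**
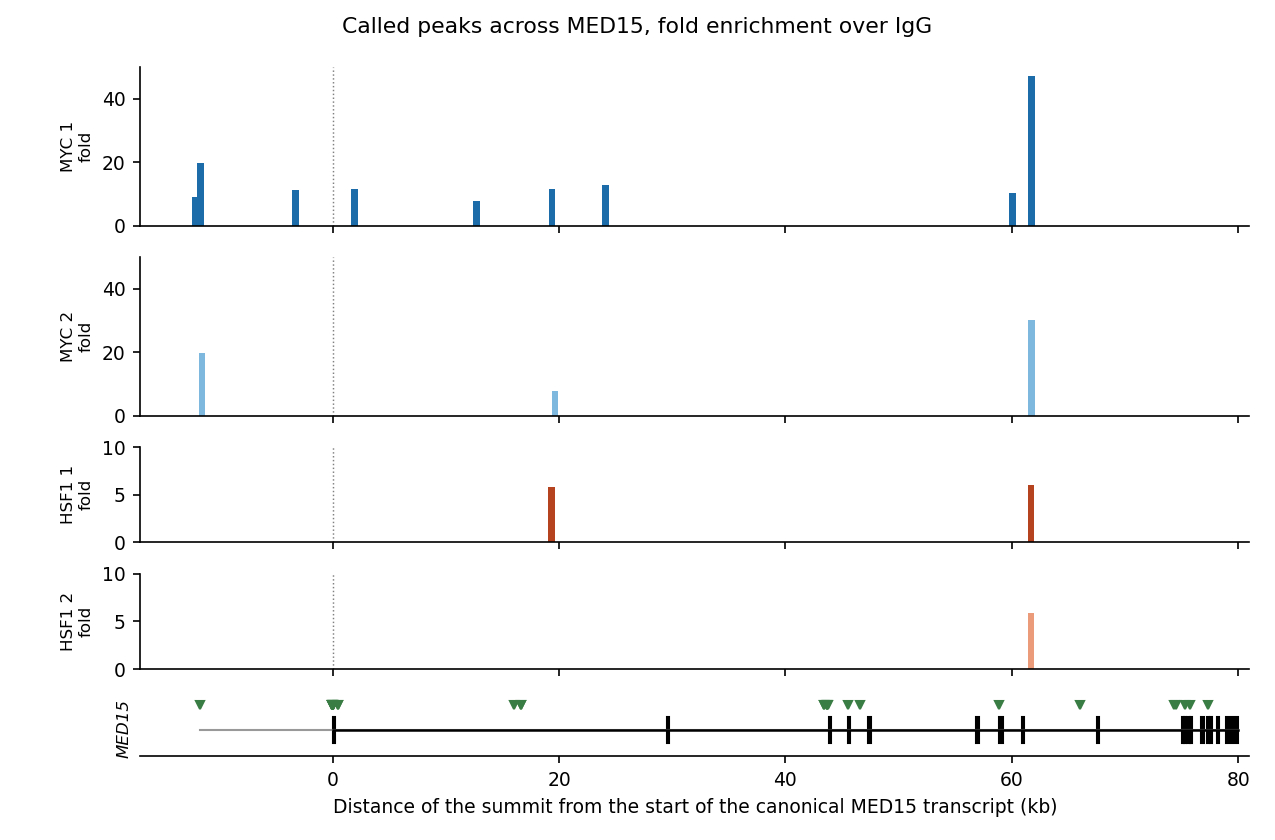
Fold enrichment over IgG (vertical axes; 0 to 50 for MYC, 0 to 10 for HSF1) of every called peak across MED15 against the distance of its summit from the canonical start in kb (horizontal axis), 1 panel for each list. The lowest track shows exons of the canonical transcript as black boxes and annotated MED15 starts as green triangles; the tallest MYC bars (47.2 and 30.1) and the HSF1 bars of both lists stand together in intron 8.

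The intron 8 peak of MYC had a fold enrichment of 47.2 and a pileup of 109 in replicate 1 (chr22:20568845-20569962) and of 30.1 and 78 in replicate 2 (chr22:20568847-20569880), a mean of 38.6 ± 12.1 (SD, n = 2). It was higher than 99.75% of the replicate 1 list and 99.03% of the replicate 2 list. By the mean of both lists 66 of the 11756 reproducible MYC peaks were higher, as were 19 of the 4040 in gene bodies. HSF1 at the same place had 6.02 and a pileup of 18 in replicate 1 (chr22:20569221-20569497) and 5.92 and 16 in replicate 2 (chr22:20569223-20569715), a mean of 5.97 ± 0.0714 (SD, n = 2). The HSF1 peak was of middle rank, with 1225 of 2141 reproducible HSF1 peaks higher. Its −log10 p of 11.6 and 10.7 would also have passed the stricter MYC threshold.

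The 4 summits lay within 31 bp. Those of MYC were 7 bp apart and those of HSF1 2 bp apart. The site is 2847 bp from the nearest annotated start, an alternative one of MED15 itself, and 45442 bp from the nearest start of another gene. Neither CACGTG nor the heat shock element was found within 100 bp of the summits, although the MYC peak of each list held 1 CACGTG farther out, and 10.6% of reproducible HSF1 peaks in coding gene windows held the latter. The E-box variant CATGTG was present on the minus strand at the last 6 capitals of the printed sequence (CACATG on the plus strand, chr22:20569338-20569343), at the replicate 1 MYC summit. CATGTG within 100 bp of the strongest summit was found in 8.73% of all reproducible MYC peaks.

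**Figure D5:**
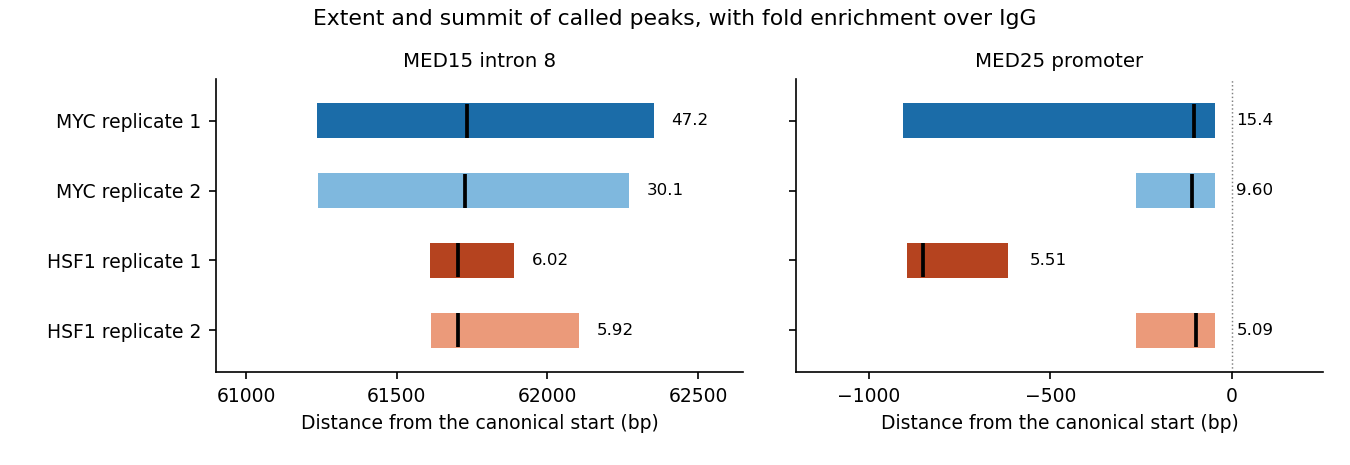
Extent (bars) and summit (black ticks) of the called peaks in MED15 intron 8 and at the MED25 promoter by distance from the canonical start in bp (horizontal axis), for each of the 4 lists (rows), with the fold enrichment beside each bar. In MED15 the 4 summits stand within 31 bp, while at MED25 the HSF1 summits stand 850 and 100 bp upstream.

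Overlapping reproducible MYC and HSF1 peaks within the gene body were found in MED15 alone, 1 of 33, against 1.39% of all coding genes. Anywhere in the gene window the count was the same, 1 of 33, against 3.65%. With single lists of the same number, overlapping peaks were found at MED13L, MED15 and MED25 in replicate 1 (3 of 33, against 13.2%) and at MED15 and MED25 in replicate 2 (2 of 33, against 6.96%). The members did not exceed the background in any of the latter 3 counts. The study had already named MED15 as a gene bound by HSF1 and MYC, from these same libraries.

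Whether MED15 counted as MYC-bound at its promoter depended on the start used. MED15 has 30 annotated starts. No peak reached its canonical promoter, but a reproducible MYC peak of 19.9 and 19.8 lay over the outermost start, 11697 bp further upstream, where the printed E-box is found. That peak was also close to the start of KLHL22 (123 and 214 bp). Another reproducible MYC peak, of 11.7 and 7.68, lay in intron 1 and overlapped the HSF1 peak there that was called in replicate 1 alone.

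Genes of the machinery that Mediator meets at promoters were taken for comparison, namely the 12 RNA polymerase II subunit genes, the TFIIH kinase (CDK7, CCNH and MNAT1) and P-TEFb (CDK9, CCNT1 and CCNT2), which releases paused polymerase. Reproducible MYC promoter peaks were found at 10 of these 18, against 35.1% of all coding genes. They were at 6 of 12 polymerase genes, 1 of 3 TFIIH kinase genes and 3 of 3 P-TEFb genes. A reproducible HSF1 promoter peak was found at 2 of 18, against 0 of 33 Mediator genes and 2.30% of all coding genes. Both overlapped the MYC peak. The difference between the gene sets rests on these few genes and was not tested. POLR2I had MYC 36.9 and 29.0 and HSF1 4.61 and 5.37. CCNT2 had MYC 29.7 and 13.3 and HSF1 4.20 and 6.03. CDK7, the kinase of TFIIH, had MYC 18.3 and 9.37 without an HSF1 call.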

How the data were processed

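CUT&RUN peak lists of 2 MYC and 2 HSF1 libraries of OVCAR8 cells were analysed. The authors trimmed paired-end reads and aligned them with Bowtie 2 (GRCh38/hg38). They ran MACS 2.2.9.1 per library, with the same IgG library as control, at p 1e-10 for MYC and 1e-04 for HSF1. For each peak the authors deposited start, end and summit positions, the pileup (a signal, scaled to the smaller library), the −log10 p-value and, as a ratio to the local IgG background, the fold enrichment. The q-value column was not used, and the IgG library enters only through these calls. No source states whether replicates came from separate cultures, so their spread may be technical. Where a list has no peak, none was called at its depth and threshold, which does not show that binding is absent.

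Peaks on chromosomes 1 to 22, X and Y were placed on GENCODE 44 (GRCh38) in Python 3.11.15 with pandas 2.3.3, numpy 2.4.6 and pysam 0.24.0, and figures were drawn with matplotlib 3.10.9. The members and lists were chosen with earlier results of these data known, and no p-value was computed. With 2 lists against 2, a two-sided exact permutation test could not go below 0.3333. Values in every list are given for members with an HSF1 peak, the 5 highest by mean MYC promoter value, those without a reproducible MYC promoter peak, and the kinase paralogs, CCNC, MED14 and MED15. The motif arrangement of MED13 and MED13L, the heat shock element of MED19, the neighbouring genes and the other genes given with values are not covered by that rule; they were picked with their values in view. The gene calling code was run on simulated data: in 20 of 20 runs all 200 genes with a planted reproducible promoter peak were recovered among 20033. The planted peaks lay on the canonical start and always overlapped between the lists, so full recovery was fixed in advance. The run checks the code and does not bear on real peaks that overlap little. A comparison gene and a neighbouring gene are not reported here.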

Additional observations from a re-analysis of the deposited data

How the results depend on the processing

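Of 67 alternative settings over the 8 results, 47 left the count or value unchanged or close to it and 20 moved it further. Taking a peak of either list raised the members with a MYC promoter peak from 13 to 26, with an HSF1 promoter peak from 0 to 2, with both overlapping there from 0 to 1 (MED25), with a MYC body peak from 2 to 9 and with an HSF1 body peak from 1 to 3. Leaving out 1 list at a time gave 14 to 25, 1 to 2, 0 to 1, 2 to 9 and 2 to 3 for these results, with the high MYC values coming from replicate 1 alone. The members with an E-box near the summit numbered 1 to 3 (2 with both lists), and without MYC replicate 1 the remaining one was CDK8. The median MYC promoter fold enrichment was 12.99 with both lists and 9.561 to 13.98 with one. MYC peaks at 1e-20 left 10 members with a MYC promoter peak, 1 with a body peak (MED15) and 1 with an E-box near the summit (MED13). Requiring summits in the promoter window gave 9 with a MYC promoter peak, 5 with a MYC body peak and 1 with an E-box. The body genes added there were MED11, MED19 and MED22, whose promoter peaks were then placed in the gene body. The promoter counts of 9 and 10, against 13, were among those taken as close. Searching the whole merged peak gave 6 with an E-box. No heat shock element was found near the MED15 HSF1 summit in any of the 6 settings tried for it. Counting all annotated starts gave 14 members with a MYC promoter peak, MED15 being added. No paired analysis was possible because the results are counts and values from peak lists and come from no test. A missing call does not show that binding is absent; the MYC list from the smaller library was the longer one.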
